A study of Mus musculus with 8 samples.

Results

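Cytosolic ribosomal protein genes were followed in the liver of mice that lack Mfn2 in POMC neurons. The members are the genes whose array symbol is Rpl or Rps followed by a number, together with Rplp0, Rplp1, Rplp2 and Rpsa where the array names them, without S6 kinase genes and pseudogene names. Of 18193 genes with a named probe set, 50 were members, and 46 of these were bright enough to be tested, among 11986 tested genes. Rpl14, Rpl39l, Rpl3l and Rps16 fell below the filter on dim probe sets. RefSeq lists 89 protein-coding mouse genes that fit the same names, and 49 of them had a probe set annotated to that gene alone, so 40 were not analysed here by a probe set of their own. Members were chosen by name and not by their values. They and the gene lists used below were chosen with earlier results of these data known.

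Whole liver was taken at 6 weeks of age from 5 POMCMfn2KO mice and 3 Control mice, and each mouse was measured on 1 GeneChip array. The name POMCMfn2KO stands for loss of the mitochondrial fusion gene Mfn2 from the pro-opiomelanocortin (POMC) neurons of the hypothalamus, and the Control mice carry the genotype label WT. All mice were of a mixed C57Bl/6J, FVB/N and 129 background, ate standard chow at will and lived with 12 h of light a day. The driver of the deletion, the alleles that Control mice carried, their sex and the hour of collection are not given in the sources used here. The title of the series asks about hypothalamic stress and hepatic glucose production. Mfn2 itself, which should be intact in hepatocytes, differed by -0.27 on the log2 scale in liver (adjusted p = 0.169, limma), so liver RNA does not check the deletion.

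Cytosolic ribosomes consist of a small subunit, which reads the mRNA, and a large subunit, which joins amino acids. Their proteins are made in nearly equal numbers, are assembled with ribosomal RNA in the nucleolus by a large set of biogenesis factors, and are among the most abundant messages of hepatocytes. Many of these messages begin with a pyrimidine tract, the terminal oligopyrimidine (TOP) motif, through which mTOR and the RNA-binding protein Larp1 adjust their translation to nutrients. A few members have a paralog that can take their place in some ribosomes.

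The start sites of 6 members are shown because they carry a pyrimidine run near the annotated start and span the range of the results. They are 3 members that rose (Rps18, Rps26, Rpl22l1), 1 that fell (Rps27l), its paralog Rps27, and Rps6, the small-subunit protein that S6 kinase phosphorylates. Whether these runs act as TOP tracts was not tested. Each stretch runs, in the direction of the gene, over the 60 bases before and the first 20 bases after the annotated start (RefSeq, GRCm38.p6). Capitals mark uninterrupted runs of at least 7 C or T that reach within 20 bases of the start, and the letters CCGGAAG or CTTCCGG, the core of many ETS-family sites.
Rps18 (chr17:33955646-33955725, minus strand): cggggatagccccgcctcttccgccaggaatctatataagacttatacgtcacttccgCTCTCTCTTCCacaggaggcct
Rps26 (chr10:128626487-128626566, minus strand): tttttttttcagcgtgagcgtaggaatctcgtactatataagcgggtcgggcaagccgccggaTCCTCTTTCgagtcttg
Rpl22l1 (chr3:28805448-28805527, plus strand): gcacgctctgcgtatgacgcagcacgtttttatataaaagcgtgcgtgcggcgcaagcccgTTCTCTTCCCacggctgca
Rps27l (chr9:66946026-66946105, plus strand): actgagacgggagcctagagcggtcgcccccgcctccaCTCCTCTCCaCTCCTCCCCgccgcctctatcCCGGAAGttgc
Rps27 (chr3:90213629-90213708, minus strand): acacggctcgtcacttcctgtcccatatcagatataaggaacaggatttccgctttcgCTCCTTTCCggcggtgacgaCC
Rps6 (chr4:86857348-86857427, minus strand): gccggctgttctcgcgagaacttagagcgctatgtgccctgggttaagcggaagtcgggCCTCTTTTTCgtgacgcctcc
In Rps18, Rps26, Rpl22l1, Rps6 and Rps27 a run of 9 to 11 pyrimidines covers or closely follows the annotated start. In Rps27l both runs lie upstream of the annotated start, and a match to CCGGAAG follows. The last letters of the Rps27 stretch open a further run that goes on past its end.

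Promoter windows of 300 bases were found for 40 of the 46 tested members. Such a pyrimidine run was present in 23 of the 40 (57.5%), against 28.3% of 9648 promoters of tested genes and 30.2% of all 27018 promoters in the RefSeq table. CCGGAAG or its reverse complement CTTCCGG was present in 20 of the 40 (50%), against 17.3% of the promoters of tested genes and 9.12% of all promoters. On both strands as well, AAGATGG, the core of YY1 sites, was in 15% of member windows, against 7.33% of windows of tested genes. CACGTG, the E-box read by Myc among others, was in 5%, against 10.2%, and GGGCGG, the GC box, in 57.5%, against 62.1%. A pyrimidine run can share letters with CTTCCGG, and each motif was counted on its own. Of the 9 members that rose and had a window, 4 held a pyrimidine run and 4 held an ETS core. These matches describe letters only.

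The values are log2 expression levels, and a difference is the mean of POMCMfn2KO minus the mean of Control on that scale. Genes were tested with limma over all 11986 tested genes, with Benjamini-Hochberg adjustment, and genes that rose or fell had an adjusted p under 0.05. The arrays were alike in centre, with a median over all probe sets between 5.79 and 5.81, and 34 of the tested members had a mean level of at least 12. Hepatocyte markers were high in all arrays, with a median level of 14.74 to 14.83 in POMCMfn2KO and 14.78 to 14.85 in Control. POMCMfn2KO 2 and POMCMfn2KO 3 stood apart in pancreatic acinar transcripts: the median level of the 11 named markers (10 tested) was 10.34 and 10.47 there, 6.12 to 6.18 in the other POMCMfn2KO arrays and 6.04 to 6.06 in Control. None of those 10 markers passed limma's test or had an unadjusted p under 0.05. Leukocyte marker medians were 7.10 to 7.32 in POMCMfn2KO and 7.54 to 7.80 in Control. Of 7 tested leukocyte markers, 3 (42.9%) fell (Ighm, Coro1a, Laptm5), against 10.9% of all tested genes. POMCMfn2KO arrays varied more than Control arrays: the median standard deviation over the members was 0.0817 in POMCMfn2KO and 0.0411 in Control, and over all tested genes 0.135 in POMCMfn2KO and 0.0686 in Control. In whole liver, a different number of cells of a type and a different amount of RNA per cell cannot be told apart.

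Ribosomal protein messages were on the whole slightly higher in POMCMfn2KO liver. Of the 46 tested members, 42 had a positive difference, and the median was 0.14, with the middle range from 0.11 to 0.23 and the extremes at -0.24 and 0.43. Over all tested genes the median was -0.02 and 45.8% were positive. With limma, 10 members rose, 1 fell and 35 did not pass. Among all tested genes 18% passed in either direction, 7.02% rose and 10.9% fell. The 10 members that rose were Rpl7l1, Rpl22l1, Rps18, Rpl10a, Rpsa, Rps28, Rps26, Rps3, Rpl7 and Rps3a1, and the member that fell was Rps27l. Every POMCMfn2KO array lay above every Control array for 21 members and below for 2, against 12% and 16.5% of all tested genes and 28.5% in either direction.

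**Figure D1:**
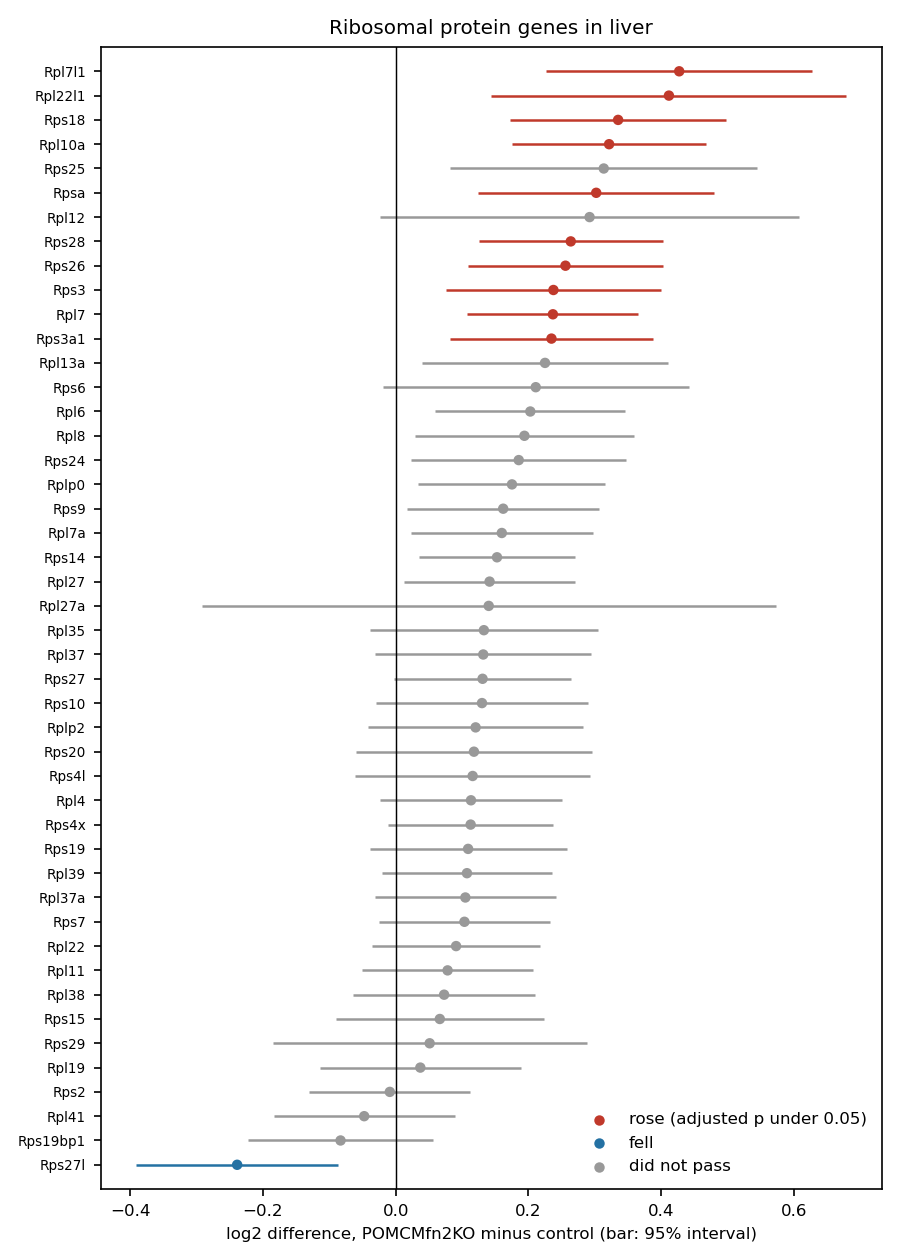
Log2 difference (POMCMfn2KO minus Control, horizontal axis) of each of the 46 tested members, largest at the top; points are limma estimates, bars their 95% intervals, and colour gives the call. The points run from 0.43 for Rpl7l1 to -0.24 for Rps27l, and 42 of 46 lie right of 0.

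The number of members that passed depended on single arrays, while the median did not. Without Control 1, 2 of the members rose (Rpl10a and Rpl7l1), and without Control 2 or without Control 3 limma called 0, with 12 and 14 members higher at an unadjusted p under 0.05. Without POMCMfn2KO 2 or POMCMfn2KO 3, 4 and 5 members rose, and without both 0 rose, with 10 higher at an unadjusted p under 0.05. Without POMCMfn2KO 4, 16 members rose. Counts over all genes moved too: the share that rose was 2.73%, 2.40% and 2.52% without Control 1, 2 and 3. It was 4.76% without POMCMfn2KO 2, 4.24% without POMCMfn2KO 3, 1.96% without both and 9.67% without POMCMfn2KO 4. The fall of Rps27l did not pass without any one of the Control arrays, without POMCMfn2KO 2 or without POMCMfn2KO 3. The median of the members stayed between 0.13 and 0.16 whichever single array was left out, and was 0.13 when both arrays with high pancreatic markers were left out.

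The shift differed between arrays. Taking each member as its deviation from the Control mean, the median over the members was 0.17, 0.18, 0.17, 0.04 and 0.15 in POMCMfn2KO 1 to 5, and 0.01, -0.00 and -0.01 in Control 1 to 3. POMCMfn2KO 4 lay lowest, close to Control, and held the lowest POMCMfn2KO value for 36 of the 46 members. Between 41 and 42 members were above the Control mean in each of the other POMCMfn2KO arrays, and 34 in POMCMfn2KO 4. Pancreatic markers were near the Control level in POMCMfn2KO 1, 4 and 5, where the median deviation of the members was 0.17, 0.04 and 0.15. In POMCMfn2KO 2 and 3, where those markers were high, it was 0.18 and 0.17. The part of pancreatic RNA in this deviation was not tested. The mean over arrays was 0.142 ± 0.0557 in POMCMfn2KO (SD, n = 5) and -0.00138 ± 0.00958 in Control (SD, n = 3).

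**Figure D2:**
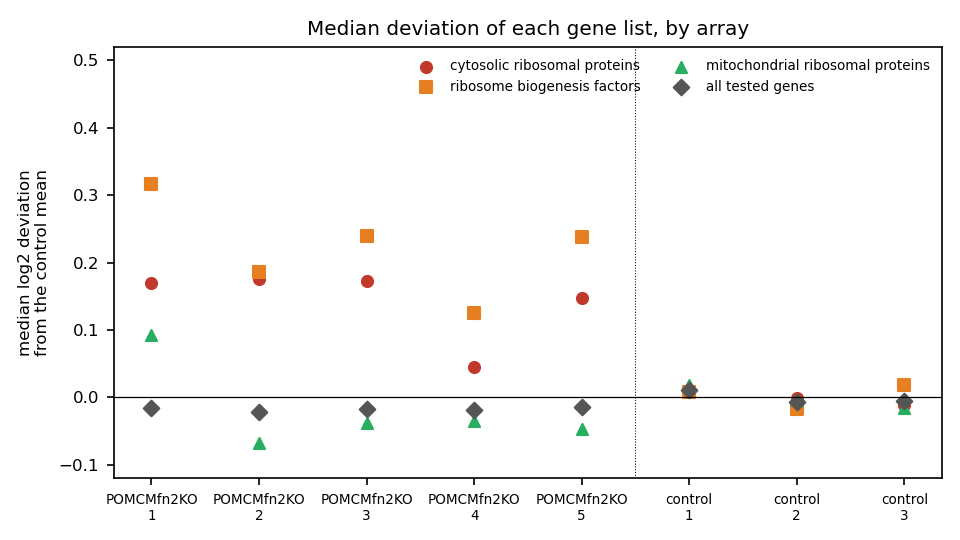
Median log2 deviation from the Control mean (vertical axis) of 4 sets of genes on each array, POMCMfn2KO 1 to 5 left of the dotted line and Control 1 to 3 right of it; there are no error bars. Cytosolic ribosomal proteins lie between 0.04 and 0.18 in POMCMfn2KO, biogenesis factors between 0.13 and 0.32, and all tested genes near 0.

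Proteins of the mRNA exit and platform region of the small subunit were among those that rose. Rpsa, which sits beside the mRNA exit and is also known as a laminin receptor, had log2 levels of 12.64, 12.53, 12.57, 12.31 and 12.49 in POMCMfn2KO 1 to 5, against 12.17, 12.20 and 12.25 in Control. It rose by 0.30 ± 0.08 (SE, adjusted p = 0.0296, limma), a 1.23-fold level, and the groups did not overlap. Rps26, which contacts mRNA upstream of the start codon, had levels of 12.74, 12.70, 12.68, 12.52 and 12.65 in POMCMfn2KO, against 12.39, 12.41 and 12.41 in Control. The Control values of Rps26 lay close together, and every POMCMfn2KO value was above them (difference 0.26 ± 0.07, adjusted p = 0.0272, limma). Rps28, another protein of the exit channel, had levels of 13.60, 13.58, 13.53, 13.45 and 13.58 in POMCMfn2KO, against 13.24, 13.27 and 13.34 in Control (difference 0.26, adjusted p = 0.0199, limma). Rps14, a platform protein, was higher in every POMCMfn2KO array by a mean of 0.15 and did not pass (adjusted p = 0.0720, limma). All 4 proteins of this group were measured above Control, as were 42 of all 46 tested members. Of the 4, 3 passed, against 10 of the 46 members that rose and 7.02% of all tested genes. Whether this group differs from the other members was not tested.

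Other small-subunit members divided between rises and values near Control. Rps18, a protein of the head of the subunit, had levels of 13.33, 13.24, 13.22, 13.05 and 13.17 in POMCMfn2KO, against 12.87, 12.91 and 12.82 in Control. Its rise of 0.33 ± 0.07 (SE, adjusted p = 0.0145, limma) was the largest of the core small-subunit proteins that passed. Rps3a1, which lies near the platform, had 13.54, 13.41, 13.49, 13.30 and 13.46 in POMCMfn2KO, against 13.21, 13.23 and 13.18 in Control. That was a rise of 0.23 (adjusted p = 0.0417, limma) with no overlap. The call of Rps3a1 was lost in 12 of 22 alternative settings, among them centring on array medians and leaving out any one Control array. Rps3, which lines the mRNA entry, had 12.81, 12.75, 12.76, 12.62 and 12.90 in POMCMfn2KO, against 12.57, 12.52 and 12.50 in Control (difference 0.24, adjusted p = 0.0492, limma). Only its brightest probe set gave this rise: 2 dimmer probe sets of Rps3 gave -0.00 and -0.33, so its direction depends on the probe set. Rps2, the other tested member at the mRNA entry, was at -0.01 (adjusted p = 0.932, limma). Rps6, the S6 kinase substrate, had 9.30, 8.998, 9.14, 8.92 and 8.86 in POMCMfn2KO, against 8.87, 8.87 and 8.75 in Control. The groups overlapped and Rps6 did not pass (difference 0.21, 95% interval -0.02 to 0.44, adjusted p = 0.186, limma). Rps25 had a difference of 0.31 on a dim probe set (adjusted p = 0.0638, limma). In all, 6 of the 22 tested small-subunit members (27.3%) rose and 1 (4.55%) fell, with a median of 0.14. Of all tested genes, 7.02% rose and 10.9% fell.

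The large subunit showed the same median, 0.14. By limma 4 of 23 tested members (17.4%) rose, against 7.02% of all tested genes. By the same test 0 fell, with none lower at an unadjusted p under 0.05. Rpl10a, which forms the mobile L1 stalk where used tRNA leaves, had log2 levels of 13.30, 13.32, 13.30, 13.12 and 13.23 in POMCMfn2KO, against 12.95, 12.92 and 12.93 in Control. It had the lowest p of the members, with a rise of 0.32 ± 0.06 (SE, adjusted p = 0.0111, limma) and a gap between the groups. Rpl7, a core protein near the 5S ribosomal RNA, had 12.78, 12.84, 12.78, 12.72 and 12.84 in POMCMfn2KO, against 12.56, 12.58 and 12.53 in Control (difference 0.24, adjusted p = 0.0222, limma). Its groups did not overlap. Rpl6 was higher in every POMCMfn2KO array by a mean of 0.20 and missed the threshold (adjusted p = 0.0551, limma).

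Of the P-stalk, the flexible arm that recruits elongation factors, no member passed. Rplp0, its base, had 13.15, 13.17, 13.21, 13.05 and 13.25 in POMCMfn2KO, against 12.99, 13.00 and 12.98 in Control. The groups did not overlap, and the difference of 0.18 had an adjusted p of 0.0827 (limma). Rplp2, an acidic protein of the arm, differed by 0.12 (adjusted p = 0.279), and Rpl12, which anchors the arm, by 0.29 on a dim probe set (95% interval -0.02 to 0.61, adjusted p = 0.181). Rplp1 was not among the genes with a probe set of their own. Rpl11, which with Rpl5 and 5S ribosomal RNA can bind the p53 regulator Mdm2, differed by 0.08 (adjusted p = 0.381, limma), and Mdm2 by 0.01 (adjusted p = 0.983). Rpl41, a very short protein between the subunits, was at -0.05 (adjusted p = 0.633, limma). Near the exit tunnel, Rpl4 differed by 0.11, Rpl39 by 0.11, Rpl35 by 0.13 and Rpl19 by 0.04, and none passed. Rpl27a had the widest interval of the members, -0.29 to 0.57, with its highest value, 8.47, in POMCMfn2KO 4.

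Paralogs gave both the largest rises and the fall. Rpl7l1, a relative of Rpl7 found in human precursors of the large subunit, had log2 levels of 8.99, 9.18, 9.20, 9.22 and 9.40 in POMCMfn2KO, against 8.84, 8.72 and 8.74 in Control. It rose by 0.43 ± 0.09 (SE, adjusted p = 0.0124, limma), a 1.34-fold level, and its other probe sets gave 0.28 and 0.20. The call was lost on the mean of its probe sets (0.30, adjusted p = 0.0868, limma) and on the most variable one (0.20, adjusted p = 0.497), and without Control 2 (adjusted p = 0.0631) or Control 3 (0.0588). Rpl22l1, the paralog of Rpl22, had 11.04, 10.96, 10.64, 10.54 and 10.63 in POMCMfn2KO, against 10.37, 10.39 and 10.30 in Control. POMCMfn2KO 1 and 2 stood above the other arrays of their group, and the rise was 0.41 ± 0.12 (SE, adjusted p = 0.0419, limma). Rpl22 differed by 0.09 (adjusted p = 0.296, limma), and its probe sets went both ways, from -0.17 to 0.12.

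Rps27l, the paralog of Rps27 and a known target of p53, was the only member that fell. Its levels were 12.63, 12.73, 12.81, 12.80 and 12.82 in POMCMfn2KO, against 13.02, 13.04 and 12.92 in Control. Every POMCMfn2KO array lay below every Control array, with a difference of -0.24 ± 0.07 (SE, adjusted p = 0.0391, limma). Its other 2 probe sets gave -0.31 and -0.28, with no overlap between the groups. Rps27, on a dim probe set, had 7.19, 7.26, 7.10, 7.20 and 7.18 in POMCMfn2KO, against 7.08, 7.01 and 7.08 in Control (difference 0.13, adjusted p = 0.160, limma).

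**Figure D3:**
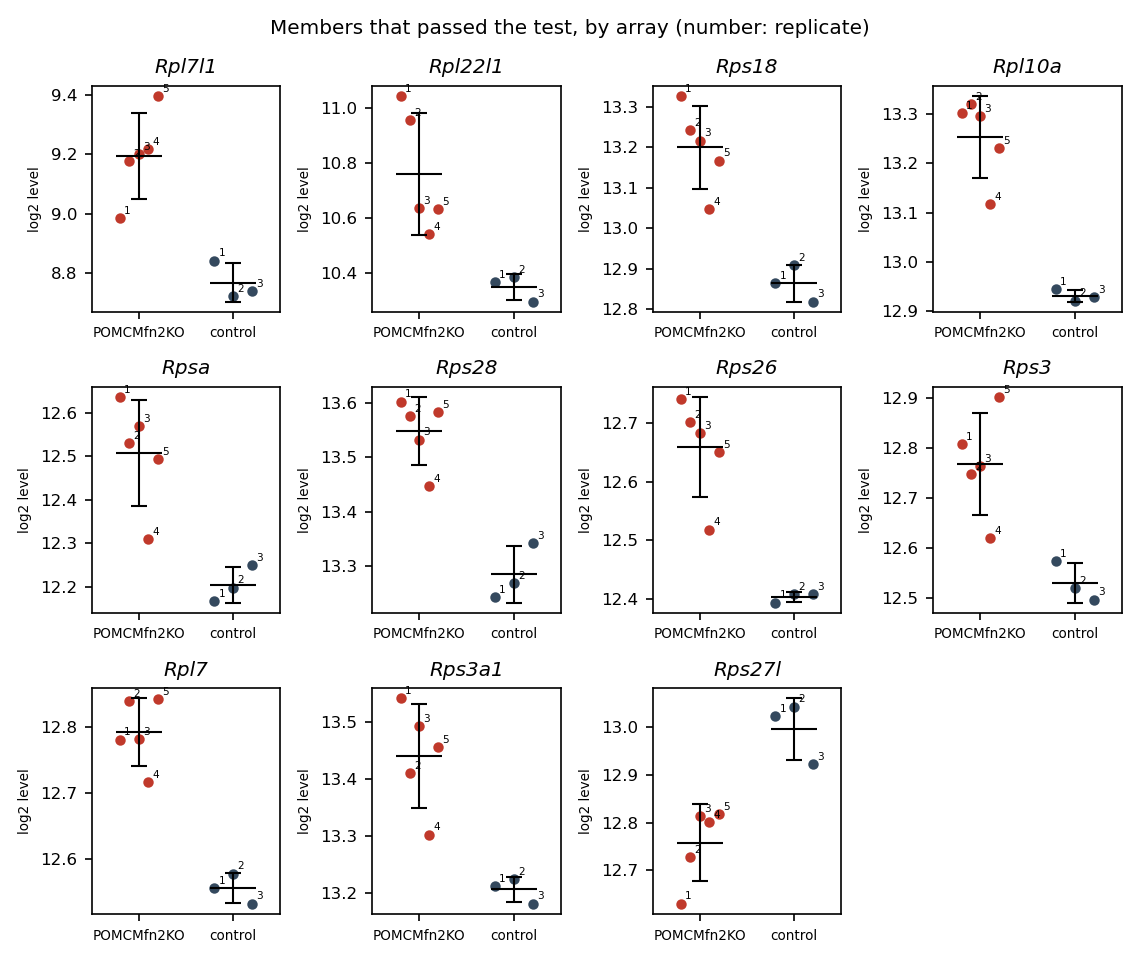
Log2 level (vertical axis, a separate scale in each panel) of the 11 members that passed the test, 1 point per array numbered by replicate, with the mean and standard deviation of the 5 POMCMfn2KO and 3 Control arrays. In each of the 11 panels the groups do not overlap; Rps27l is lower in POMCMfn2KO, the other 10 higher, and POMCMfn2KO 4 is the lowest of its group in 9 of those 10.

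To set paralogs against each other, the log2 ratio of the pair was taken on each array and compared between groups by an exact permutation test over the 56 splits of the arrays (2-sided, smallest possible p 0.0179), adjusted over 4 pairs. The ratio of Rps27l to Rps27 was lower in all POMCMfn2KO arrays than in any Control array, by -0.37 (exact p = 0.0179, adjusted 0.0714). This ratio sets a bright probe set of Rps27l, which may bind related transcripts, against a dim one of Rps27. The ratio of Rpl22l1 to Rpl22 differed by 0.32 (exact p = 0.0714, adjusted 0.119), also with no overlap between the groups. That of Rpl7l1 to Rpl7 differed by 0.19 (exact p = 0.0893, adjusted 0.119). Rps4l, which RefSeq lists as a transcribed pseudogene, kept a ratio to Rps4x that differed by 0.003 (exact p = 1). None of the 4 ratios passed after adjustment. With so few arrays, the smallest possible exact p of 0.0179 is adjusted to 0.0714 unless other pairs have a low p too. The ratio of Rps27l to Rps27 thus could not pass on its own. Full separation of the groups does not by itself give that smallest p, as the ratio of Rpl22l1 to Rpl22 shows.

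Other probe sets of the members were read beside the chosen ones. Of 48 other probe sets of tested members above the filter, 38 were positive and 39 had the sign of the brightest one, with a median of 0.14 and a range of -1.58 to 0.48. A further 99 probe sets above the filter are annotated to several genes that include a member, and 89 of them were positive, with a median of 0.13. Probe sets that may bind related transcripts, with the suffix x or s, served 15 of the tested members, with a median of 0.13. Of these 15, 2 (13.3%) rose and 1 (6.67%) fell. The other 31 had 8 rises (25.8%) and 0 falls by limma, also with none lower at an unadjusted p under 0.05, and a median of 0.14. Of all tested genes, 7.02% rose and 10.9% fell. Processed pseudogenes of ribosomal proteins are numerous, so a probe set can also read such copies.

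The most divergent probe set belonged to Rps9, a small-subunit protein. Its brightest probe set had 12.94, 12.85, 12.87, 12.72 and 12.83 in POMCMfn2KO, against 12.69, 12.71 and 12.65 in Control. A second one had 12.51, 8.75, 8.34, 11.33 and 8.49 in POMCMfn2KO, against 11.55, 11.50 and 11.35 in Control. On the second probe set 3 of the POMCMfn2KO arrays were thus far below the rest, and its difference was -1.58, while the brightest gave 0.16 and the dimmest 0.21.

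**Figure D4:**
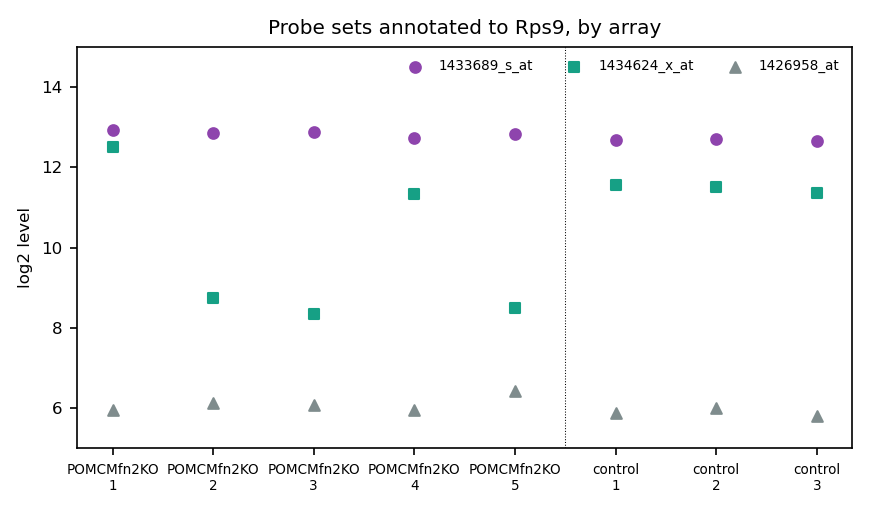
Log2 level (vertical axis) of the 3 probe sets annotated to Rps9 on each array, POMCMfn2KO left of the dotted line and Control right of it; there are no error bars. The middle probe set is at 8.75, 8.34 and 8.49 in POMCMfn2KO 2, 3 and 5 and above 11 in all other arrays, while the other probe sets stay nearly level.

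Members were also set beside genes of like brightness and beside the other ribosome of the cell. Among genes with a probe set mean of at least 12, the 34 members had a median of 0.13 and the 505 other genes had a median of -0.03, with 7.33% that rose and 12.3% that fell. The 12 tested members below that brightness had a median of 0.14. Mitochondrial ribosomal proteins, encoded in the nucleus and built into a separate ribosome, had a median of -0.03 over 76 tested genes. Of these, 3 (3.95%) rose and 4 (5.26%) fell, against 7.02% and 10.9% of all tested genes. On the arrays their median deviation was 0.09, -0.07, -0.04, -0.03 and -0.05 in POMCMfn2KO 1 to 5. Rps19bp1, which fits the naming rule but is a binding partner and not a subunit, was below Control in every POMCMfn2KO array and did not pass (difference -0.08, adjusted p = 0.388, limma). Fau, the ribosomal protein eS30 outside the naming rule, differed by 0.12 (adjusted p = 0.409, limma).

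**Figure D5:**
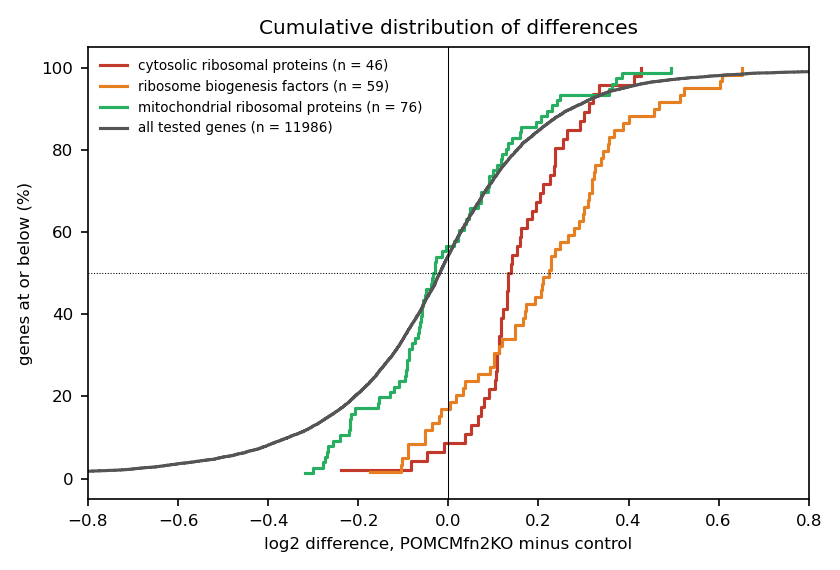
Cumulative share of genes (vertical axis, percent) at or below each log2 difference, POMCMfn2KO minus Control (horizontal axis), for 46 cytosolic ribosomal proteins, 59 biogenesis factors, 76 mitochondrial ribosomal proteins and all 11986 tested genes. The cytosolic and biogenesis curves cross 50% at 0.14 and 0.22, the mitochondrial and all-gene curves at -0.03 and -0.02.

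Among factors that build ribosomes, more than the background share rose. Of 60 listed biogenesis factors, 59 were tested: 21 (35.6%) rose, against 7.02% of all tested genes, and 38 did not pass. By limma 0 fell, with none lower at an unadjusted p under 0.05, and 49 were positive and 10 negative. Their median was 0.22, and all POMCMfn2KO arrays lay above all Control arrays for 28 of them (47.5%), against 12% of all tested genes. Emg1, a methyltransferase of 18S ribosomal RNA, had log2 levels of 10.99, 10.84, 10.88, 10.82 and 10.83 in POMCMfn2KO, against 10.51, 10.43 and 10.47 in Control (difference 0.40, adjusted p = 0.00406, limma). Nolc1, a nucleolar chaperone of small RNA-protein particles, rose by 0.61 (adjusted p = 0.00660), Tsr1, a small-subunit maturation factor, by 0.52 (adjusted p = 0.00763), and Gnl3, nucleostemin, by 0.37 (adjusted p = 0.00947). Nop56, Nop58 and Fbl, named after their values were seen as partners in the box C/D particle that methylates ribosomal RNA, rose by 0.65, 0.60 and 0.30. Other factors of the list did not pass, such as Gar1 (0.35), Dkc1 (0.11), Nhp2 (-0.02) and Nop10 (-0.09). The 10 factors below Control lay between -0.17 and -0.02 and included Ncl, Sbds and Eif6. The median deviation of the biogenesis factors was 0.32, 0.19, 0.24, 0.13 and 0.24 in POMCMfn2KO 1 to 5, so POMCMfn2KO 4 was again the lowest. The count of rises was 6, 7 and 7 without Control 1, 2 and 3, 12 and 10 without POMCMfn2KO 2 and 3, and 4 without both of those. The share of all tested genes that rose was 1.96% to 4.76% in these fits. The median of the factors lay between 0.19 and 0.24 in each of these fits and in those without POMCMfn2KO 1, 4 or 5.

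The remaining lists of the pathway are read against the 7.02% of all tested genes that rose and the 10.9% that fell. Of 21 tested genes for RNA polymerase I and 5S transcription, which supply ribosomal RNA, 2 (9.52%, near the background) rose: Gtf3c1 by 0.40 (adjusted p = 0.00584, limma) and Polr1c by 0.40 (adjusted p = 0.0256). The median of the 21 was 0.10, and 17 of them (81%) were positive, against 45.8% of all tested genes. Ttf1 (0.25) and Gtf3a (-0.21) did not pass. Of 21 tested messages outside the ribosomal proteins that are known to carry a TOP tract, 2 rose, again 9.52% and near the background. Their median was 0.13, and 18 of the 21 (85.7%) were positive, against 45.8% of all tested genes. All POMCMfn2KO arrays lay above all Control arrays for 9 of the 21 (42.9%), against 12% of all tested genes. The 2 that rose were Gas5, a host of small nucleolar RNAs, by 0.33 (adjusted p = 0.0109), and Pabpc1, the poly(A)-binding protein, by 0.24 (adjusted p = 0.0437). The elongation factor subunits Eef1d and Eef1b2 each differed by 0.24 and did not pass. Of 17 tested genes for assembly chaperones and ribosome quality control, 3 (17.6%) rose, with a median of 0.20. They were Ascc3, a helicase that splits collided ribosomes, by 0.57 (adjusted p = 0.00262), the importin Ipo7 by 0.45 (adjusted p = 0.00388) and the ribosome rescue factor Pelo by 0.55 (adjusted p = 0.0241). Grwd1, a chaperone of Rpl3, differed by 0.23 and did not pass. These small counts depended on single arrays, as did the share of all tested genes that rose. For polymerase I and 5S genes 1 rose without Control 1, 2 or 3 and without POMCMfn2KO 2 or 3. For the TOP messages limma called 0 rises without Control 1 (5 higher at an unadjusted p under 0.05), 1 without Control 2 or 3 or POMCMfn2KO 2, 3 or 5, 4 without POMCMfn2KO 1 and 5 without POMCMfn2KO 4. For the chaperone and quality control genes 2 rose without Control 1 or 2 or POMCMfn2KO 2 or 3, and 7 without POMCMfn2KO 4.

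Genes that carry growth signals to the ribosome differed in both directions. The list mixes genes that promote growth, such as Mtor and Myc, with inhibitors such as Deptor and Pdcd4. Its median therefore cannot show the direction of the signalling. Of 23 tested, 1 rose (4.35%, against 7.02% of all tested genes), 1 fell and the median was 0.04. Deptor, which inhibits mTOR, rose by 0.39 (adjusted p = 0.0456, limma), and Pdcd4, a translation inhibitor that S6 kinase marks for destruction, fell, with a difference of -0.34 (adjusted p = 0.0128). By limma 0 of these genes rose without Control 1, 2 or 3 or without POMCMfn2KO 2, 3 or 5, with 1 or 2 higher at an unadjusted p under 0.05. None fell without Control 1 or 2, with 1 lower at an unadjusted p under 0.05, and 2 fell without POMCMfn2KO 1 or 3. Mtor (-0.06, adjusted p = 0.643), Larp1 (0.12, adjusted p = 0.180), Eif4ebp1 (-0.17, adjusted p = 0.232) and Myc (0.19, adjusted p = 0.319) did not pass, and neither did Larp4 (0.21) or Mlst8 (-0.14). These are RNA levels, and the activity of the kinases was not measured.

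Markers of other liver cells moved with the groups to different degrees. None of 8 tested Kupffer cell markers passed, with 3 lower at an unadjusted p under 0.05, and their median deviation in POMCMfn2KO ran from -0.62 to 0.12. Of 6 tested endothelial markers 2 (33.3%) rose (Stab2 and Fcgr2b), with median deviations of 0.09 to 0.48. Of 6 hepatocyte markers 1 (16.7%) rose (Cps1), with median deviations of 0.02 to 0.08. The share of all tested genes that rose was 7.02%. Stellate, cholangiocyte and erythroid markers had 0 of 6, 0 of 3 and 0 of 1 past limma's test, with 2, 0 and 0 at an unadjusted p under 0.05. None of 3 proliferation markers passed or had an unadjusted p under 0.05, and their median deviation ran from -0.56 to 0.45, with the highest in POMCMfn2KO 5. The part of these cells and of pancreatic RNA in the higher ribosomal protein levels was not tested.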

How the data were processed

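RNA of whole liver from 5 POMCMfn2KO and 3 Control mice was measured on GeneChip arrays. The deposited values are log2 levels of probe sets, which the authors computed by RMA (affy), per the submitters' processing notes, and were not transformed again. Arrays carry no read depth, so their number limits the precision. Of 45101 probe sets, 64 were controls, 34945 had 1 gene symbol, 932 several and 9160 none. Each gene took its named probe set with the highest mean, and 6207 genes below 5.80, the median of non-control probe sets, were left untested. The test was limma 3.58.1 in R 4.3.3 (lmFit and eBayes, no trend, not robust, 2-sided), adjusted by Benjamini-Hochberg at 0.05. The fit was tried on simulated data with equal spread in both groups, whereas in these data POMCMfn2KO arrays varied more. Replicates are labelled biological. Numbers shared by both groups were not used as pairs, since no label says what a number marks. Deviations of arrays with the same number correlated at 0.04, 0.04 and -0.03, and those with different numbers at -0.08 to 0.05.

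Named genes were the members past the threshold, paralog pairs, stalk and 5S proteins, Rps6, the 4 lowest p of each list and a few regulators; others were named after their values were seen. Members, lists and tests were chosen with earlier results of these data known. Alternatives changed the filter, probe set, scaling, variance model, threshold, replicate block and single arrays; centring on other bright genes and the biogenesis counts were added after seeing the data. Plots were made in Python 3.11.15 by matplotlib 3.10.9.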

Additional observations from a re-analysis of the deposited data

Results flagged for a closer look

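In POMCMfn2KO 4, 5 members and the median over the members lay farther from the other 4 POMCMfn2KO arrays than Dixon's test allows at the 95% level, each time on the low side. Rpl13a was at 13.27 in that array, and the next lowest POMCMfn2KO value was 13.51. Rpl37a was at 13.33 (next 13.45), Rpl38 at 13.28 (next 13.40), Rps19 at 11.93 (next 12.08) and Rps24 at 12.88 (next 13.07). The median deviation of the members from the Control mean was 0.0446 in POMCMfn2KO 4, and the next lowest was 0.148. Of 47 values looked at, 6 stood out this way, and chance marks about 1 in 20. The members share each array, so the 6 are not independent.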

How the results depend on the processing

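The members' median difference kept its sign and size under every setting run (0.13 to 0.19). The counts of calls did not. Members that rose numbered 16 with array weights by genotype, 16 at a threshold of 0.1, 0 at 0.01 and 0 without POMCMfn2KO 2 and 3 (limma, with 20 and 10 higher at an unadjusted p under 0.05). Leaving out single arrays gave 0 to 16. The fall of Rps27l was lost (0 falls) at 0.01 and without POMCMfn2KO 2 and 3, and single arrays gave 0 to 1. Over all genes, rises numbered 1323 with array weights, 1335 at 0.1, 253 at 0.01 and 235 without POMCMfn2KO 2 and 3, and 287 to 1159 without single arrays. Falls numbered 449 at 0.01, 410 without POMCMfn2KO 2 and 3, and 492 to 1649 without single arrays. Biogenesis factors that rose numbered 7 at 0.01, 4 without POMCMfn2KO 2 and 3, and 6 to 26 without single arrays. Rps3 was at -0.0306 on the mean of its probe sets and -0.33 on its most variable one, where Rpl22 was at -0.17. The other 10 called members kept their sign in all 22 settings. Quantile normalization, centring on array medians and centring on other bright genes left 9, 8 and 9 rises. Fewer arrays lower the power by construction; beyond that, the cause was not tested. No label says what a replicate number marks. With the numbers as a block, 6 members rose and 0 fell, with 23 higher and 1 lower at an unadjusted p under 0.05.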
